A study of Mus musculus with 8 samples.

Results

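The 133 genes described here were active in WT mouse embryonic stem cells (mESCs), were low in WT embryoid bodies (EBs) on day 4 after differentiation, and were still read at a higher level in EBs of the CTCF-K20R mutant. They were selected on the deposited normalized counts, averaged over the 2 libraries of a group. A gene had to reach 200 in WT mESCs, to stand in WT EBs at 0.25 or less of its WT mESC level, and to stand in CTCF-K20R EBs at 3 or more times its WT EB level without passing its WT mESC mean, with 1 added to both means of each ratio. Of 18094 genes, 9293 reached the WT mESC minimum, 569 of these (6.12%) were silenced in WT EBs in this sense, and 133 of the 569 (23.4%) were retained in CTCF-K20R EBs. These shares, and every value of WT mESCs, WT EBs and CTCF-K20R EBs given below, describe the selection and are not tests of it. The words silenced and retained are used for these thresholds only.

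RNA was sequenced from mESCs of both genotypes (day 0) and from their EBs on day 4, with 2 libraries for each genotype and day, 8 in all. All cells derive from E14Tg2A, a male mESC line kept on mitomycin C-inactivated feeder fibroblasts with serum, LIF and 2i, and the EBs were made in hanging drops with serum and without LIF. The CTCF-K20R cells carry an edit introduced by CRISPR/Cas9 with a donor vector and drug selection, by which the lysine at position 20 of CTCF becomes arginine, so the effect of the mutation and of the picked clone cannot be told apart. The 2 WT libraries of each day differed by less than the sampling noise (mean squared difference 0.313 times the sampling noise on day 0 and 0.277 times on day 4, against 4.00 and 4.36 for the CTCF-K20R pairs) and were counted as 1 sample, so that differences between WT days have no replicate check. The libraries summed to 19412659 to 21311513 normalized counts, and 3 reads, taken as the limit of detection, were worth 2.44 to 3.44. Such limits cover counting error only. Ctcf itself was read at 3971 and 3938 in WT mESCs, 4610.0 and 4408 in mutant mESCs, 4241 and 4256 in WT EBs and 4926 and 4771 in mutant EBs, but the point mutation cannot be read from gene-level values.

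mESCs in 2i and LIF are in the naive state of pluripotency, in which a network of transcription factors (among them NANOG, ESRRB, KLF2, KLF4, TBX3 and TFCP2L1) holds the genes of the pre-implantation epiblast active. When LIF and 2i are withdrawn, naive genes are shut down first, general pluripotency genes such as Pou5f1 persist longer, and germ layer genes follow. A second class of genes that mESCs share with the germ line is normally closed during the same days by promoter methylation and by repressors such as the E2F6 complex. CTCF is a zinc finger protein that binds DNA and, with cohesin, sets chromatin loops.

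The promoters of 7 of the genes discussed below are shown because the gene is among the most strongly retained, lies in a pair of neighbouring retained genes, or is a naive or germline gene with a match to a motif searched. Each is the 250 bases before the RefSeq start, 5′ to 3′ on the strand of the gene, from RefSeq on GRCm38.p6. Capitals mark a TATA box (TATAAA) in Aire, the KLF core CCCCACCC in Esrrb, Tcl1 and Tuba3a, the CTCF core CCACNAGG in Tcl1 and the E2F6 core GGCGGGAA in Tuba3a, searched on both strands (the CTCF and E2F6 cores were found on the opposite strand). No TATA box was found in the stretches of Kirrel2, Nphs1 and Dnmt3l, which have no capitals.
Esrrb (chr12:86360867-86361116, plus strand): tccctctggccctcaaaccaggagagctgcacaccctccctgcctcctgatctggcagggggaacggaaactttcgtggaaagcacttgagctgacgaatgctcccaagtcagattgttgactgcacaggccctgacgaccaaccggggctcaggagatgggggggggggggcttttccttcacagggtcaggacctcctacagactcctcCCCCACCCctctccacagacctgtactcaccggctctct
Tcl1 (chr12:105222738-105222987, minus strand): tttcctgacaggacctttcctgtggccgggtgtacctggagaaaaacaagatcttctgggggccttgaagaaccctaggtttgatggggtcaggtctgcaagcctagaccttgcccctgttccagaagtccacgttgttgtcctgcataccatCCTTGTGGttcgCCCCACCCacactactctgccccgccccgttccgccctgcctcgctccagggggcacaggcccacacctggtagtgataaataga
Aire (chr10:78043611-78043860, minus strand): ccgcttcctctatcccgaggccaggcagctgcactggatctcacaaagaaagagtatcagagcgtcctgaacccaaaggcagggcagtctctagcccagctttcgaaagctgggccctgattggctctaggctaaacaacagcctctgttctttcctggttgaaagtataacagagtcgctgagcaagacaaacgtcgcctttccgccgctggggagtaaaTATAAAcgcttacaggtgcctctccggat
Dnmt3l (chr10:78042037-78042286, plus strand): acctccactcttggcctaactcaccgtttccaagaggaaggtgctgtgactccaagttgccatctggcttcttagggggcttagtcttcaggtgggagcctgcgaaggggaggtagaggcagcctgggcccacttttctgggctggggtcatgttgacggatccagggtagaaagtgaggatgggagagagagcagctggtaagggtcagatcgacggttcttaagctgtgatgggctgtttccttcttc
Kirrel2 (chr7:30457516-30457765, minus strand): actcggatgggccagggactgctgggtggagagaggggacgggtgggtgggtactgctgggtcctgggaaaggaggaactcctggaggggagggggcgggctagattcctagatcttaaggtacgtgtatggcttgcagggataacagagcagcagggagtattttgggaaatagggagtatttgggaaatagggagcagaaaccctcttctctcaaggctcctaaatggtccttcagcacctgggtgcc
Nphs1 (chr7:30459808-30460057, plus strand): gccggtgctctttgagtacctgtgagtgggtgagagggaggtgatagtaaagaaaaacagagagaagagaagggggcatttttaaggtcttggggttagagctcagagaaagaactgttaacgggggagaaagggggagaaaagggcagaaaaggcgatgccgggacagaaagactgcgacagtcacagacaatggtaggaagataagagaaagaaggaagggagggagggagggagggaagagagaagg
Tuba3a (chr6:125286082-125286331, minus strand): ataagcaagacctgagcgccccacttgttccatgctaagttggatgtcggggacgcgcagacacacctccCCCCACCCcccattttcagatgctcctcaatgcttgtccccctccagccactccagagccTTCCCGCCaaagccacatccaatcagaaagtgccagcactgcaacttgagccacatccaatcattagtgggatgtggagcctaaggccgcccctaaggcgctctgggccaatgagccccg
The KLF core starts 39 bases before the start of Esrrb, 85 before that of Tcl1 and 180 before that of Tuba3a. The CTCF core of Tcl1 starts 97 bases and the E2F6 core of Tuba3a 120 bases before the start, and the TATA box of Aire lies 29 bases before it. None of these matches overlaps another. Over stretches of the same length before the starts of 27025 RefSeq genes, 8.96% hold the KLF core, 4.20% the CTCF core, 1.91% the E2F6 core and 12.98% the TATA box. A match is a description of the letters and not evidence of binding. RefSeq promoters were found for 86 of the 133 genes (64.7%), which is too few for a test of motif or CpG content against other genes. In these 86, searched past the start too, the KLF core occurred in 6.98%, the CTCF core in 2.33%, the E2F6 core in 3.49% and the TATA box in 13.95%. In 309 other silenced genes these shares were 18.45%, 4.21%, 4.53% and 10.36%. The promoters shown were picked partly for a match, so their matches do not describe the retained genes as a group.

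The level left on day 4 differed widely among the retained genes. In CTCF-K20R EBs they stood between 0.545% and 97.5% of their WT mESC mean, with a median of 23.5%, and in WT EBs between 0% and 24.8%, with a median of 4.67%. In CTCF-K20R EBs, 38 genes stood at 50% or more of the WT mESC mean, 16 of them at 75% or more, and 30 stood under 10%. The ratio of CTCF-K20R to WT EBs (the retention ratio) ranged from 3.02 to 112 with a median of 4.36, compared with a median of 1.89 over all 569 silenced genes. Retention under the rule therefore covers genes that were hardly lower than in mESCs and genes that were nearly gone in both genotypes.

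**Figure D1:**
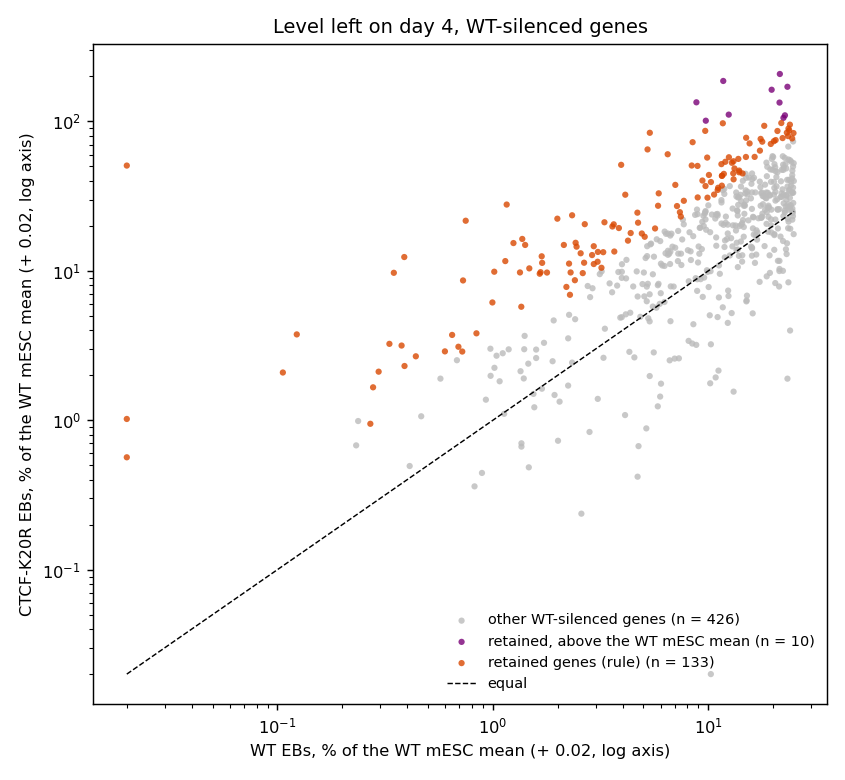
Each point is 1 of the 569 genes silenced in WT EBs, with its mean level in WT EBs (x axis) and in CTCF-K20R EBs (y axis), both as percent of its WT mESC mean on log axes with 0.02 added. The 133 retained genes (orange) reach up to 97.5% on the y axis, the 10 genes in purple pass 100%, and grey points lie on both sides of the dashed line of equal levels.

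In all 133 genes both CTCF-K20R EB libraries lay above both WT EB libraries, which the thresholds all but require. Myo1f was at or under the limit of detection in EBs of both genotypes (0 in both WT and 2.35 and 2.25 in the mutant libraries), so no fold can be given for it. For Spic and Mep1b, under the limit in WT EBs, the mutant level was at least 1.22-fold and 1.96-fold higher, less than the ratio the rule asks for. The CTCF-K20R EB libraries of a gene were close to each other (the median ratio of the higher to the lower library was 1.11), but in 14 genes they were more than 1.5 times apart. Ttn, the gene of the giant muscle protein titin, was one of these, at 41.2 and 214. Compared with their own CTCF-K20R mESC mean, the genes stood at 1.02% to 167% in CTCF-K20R EBs, with a median of 29.6%. By this measure 60 of the 133 were themselves at 25% or less of their starting level in the mutant, and 13 were above it. In bulk RNA, a larger share of cells that still express a gene and more RNA of it per cell cannot be told apart.

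**Figure D2:**
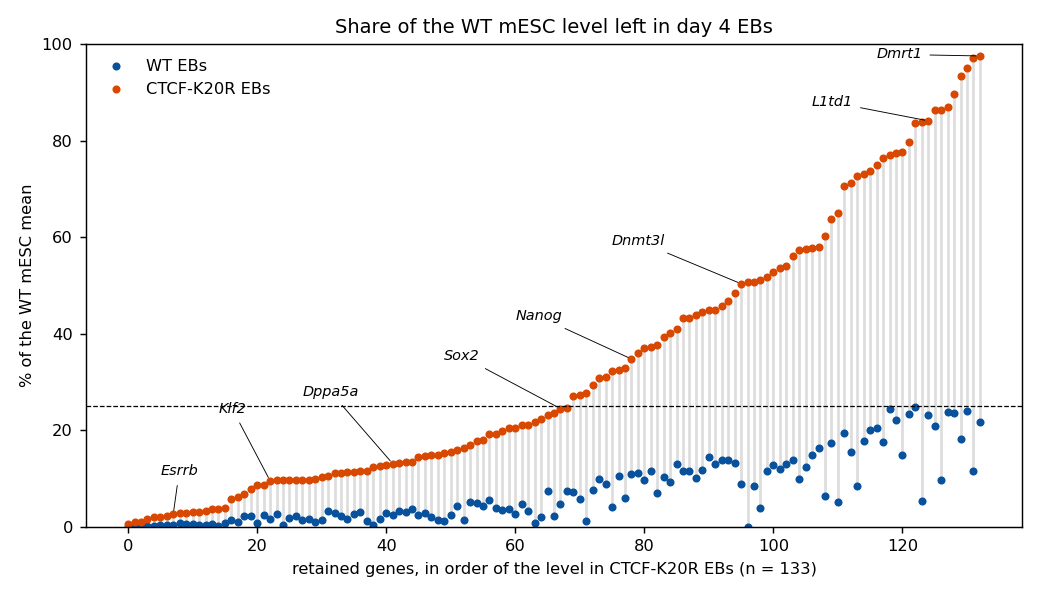
Each retained gene (x axis, n = 133, ordered by its level in CTCF-K20R EBs) is drawn with its mean in CTCF-K20R EBs (orange) and in WT EBs (blue), as percent of its WT mESC mean, and the dashed line marks 25%. The orange points rise from 0.545% to 97.5% while the blue points stay at or under 24.8%, with Esrrb near the lower end and Dmrt1 at the upper end.

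The naive pluripotency network was the list with the most retained genes, and also the list with the most silenced genes. Over all 569 silenced genes 23.4% were retained, and the list was chosen with earlier results of these data known. Of the 35 genes on the list of this network, all measured, 32 reached the WT mESC minimum, 29 were silenced in WT EBs and 16 of the 29 were retained, with a median retention ratio of 3.43 for the 29. Dppa5a, Esrrb, Nanog, Tdh, Spp1, Klf2, Fbxo15, Nr5a2, Morc1, Ooep, Gdf3, Tcl1, Nr0b1, Dppa4, Dppa2 and Aire were the 16. Summed over the list, the libraries held 211029 to 211245 normalized counts in WT mESCs, 203516 to 206650 in CTCF-K20R mESCs, 25018 to 25106 in WT EBs and 47521 to 48398 in CTCF-K20R EBs. The sum of the mutant EBs thus lay between those of WT EBs and of mESCs, and nearer to that of WT EBs.

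Nanog (ENSMUSG00000012396, chromosome 6, 122707489 to 122714633 on GRCm38), the homeobox factor at the centre of the network, was read at 15423 and 15415 normalized counts in the WT mESC libraries, 16549 and 16387 in CTCF-K20R mESCs, 1702 and 1698 in WT EBs and 5510.4 and 5208 in CTCF-K20R EBs. Its mutant EB libraries lay above both WT EB libraries and far below all mESC libraries, with 34.8% of the WT mESC mean left against 11.0% in WT EBs. Esrrb (ENSMUSG00000021255, chromosome 12, 86361117 to 86521628), an orphan nuclear receptor that can stand in for Nanog, was read at 17282 and 17343 normalized counts in the WT mESC libraries, 16402 and 16202 in CTCF-K20R mESCs, 71.5 and 73.6 in WT EBs and 441 and 479.8 in CTCF-K20R EBs. Esrrb was 6.35 times higher in the mutant EBs, but this was only 2.66% of the WT mESC level. Klf2 (ENSMUSG00000055148, chromosome 8, 72319033 to 72321656), a zinc finger factor of the same network, was read at 4382 and 4398 normalized counts in the WT mESC libraries, 7550.2 and 8152 in CTCF-K20R mESCs, 73.4 and 69.7 in WT EBs and 451 and 387 in CTCF-K20R EBs. The mutant libraries of Klf2 were the higher ones on each day, and the mutant EBs stood at 9.54% of the WT mESC mean and 5.34% of the mutant mESC mean. The 40 nearest genes tested around Klf2 were shifted by a median of 0.50 (log2) in the mutant mESCs, and the part of this in the level of Klf2 was not tested.

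Sox2 (ENSMUSG00000074637, chromosome 3, 34650405 to 34652461), the partner of OCT4, was read at 13107 and 13162 normalized counts in the WT mESC libraries, 13545 and 12811 in CTCF-K20R mESCs, 608 and 618 in WT EBs and 3240.1 and 3192 in CTCF-K20R EBs, a log2 difference of 0.004 between the mESCs, and the mutant EBs kept 24.5% compared with 4.67% in WT EBs. Nanog and Sox2 were the only silenced genes among the 8 on the list of core pluripotency factors. Pou5f1, the gene of OCT4, was not silenced in WT EBs, with 24629 and 24703 normalized counts in WT mESCs, 23485 and 24558 in CTCF-K20R mESCs, 12595 and 12696 in WT EBs and 21940.1 and 21590.1 in CTCF-K20R EBs. The WT EB libraries of Pou5f1 were the low ones, and the mutant EBs lay just under the mESCs. Lin28a, Tdgf1, Sall4, Trim28 and Zfp281 were likewise not silenced.

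Dppa5a, an RNA-binding protein, had the highest normalized count of the 133 genes in WT mESCs, not corrected for length. It was read at 31030.3 and 31180.2 normalized counts in the WT mESC libraries, 32799 and 34823 in CTCF-K20R mESCs, 773 and 804 in WT EBs and 4079 and 4061 in CTCF-K20R EBs. Its mutant EB libraries were 5.16 times the WT EB level, at 13.1% of the WT mESC mean. Dppa2 and Dppa4, which encode a pair of SAP domain proteins that act together on bivalent promoters, were among the best kept of the naive group. Dppa4 was read at 1601 and 1610.0 normalized counts in the WT mESC libraries, 1624 and 1522 in CTCF-K20R mESCs, 318 and 307 in WT EBs and 1155 and 1113 in CTCF-K20R EBs, and Dppa2 at 1373 and 1359.8 in WT mESCs, 1367 and 1335 in mutant mESCs, 178 and 178 in WT EBs and 639 and 587 in mutant EBs. The mutant EBs kept 70.6% of the WT mESC level of Dppa4 and 44.9% of that of Dppa2, against 19.5% and 13.0% in WT EBs. Of the 31-base words of Dppa5a, Dppa4 and Dppa2, 57.2%, 40.1% and 33.8% occur in another annotated gene, so part of their reads may be shared with such copies.

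Gdf3, a TGF-beta family ligand of the epiblast, was read at 2015 and 2023 normalized counts in the WT mESC libraries, 1444 and 1419.8 in CTCF-K20R mESCs, 45.3 and 48.0 in WT EBs and 467 and 482 in CTCF-K20R EBs. Tcl1, a coactivator of the AKT kinase, was read at 1842 and 1853 normalized counts in the WT mESC libraries, 3304 and 3188 in CTCF-K20R mESCs, 0.958 and 2.22 in WT EBs and 43.6 and 32.7 in CTCF-K20R EBs. The WT EB libraries of Tcl1 were at or under the limit of detection, so its level in the mutant EBs was at least 13.3-fold higher. Both genes were low in every EB library relative to mESCs, Tcl1 far more so, with 2.07% left in the mutant compared with 23.5% for Gdf3.

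Spp1, Nr5a2, Morc1, Ooep and Nr0b1 were, with Esrrb and Tcl1, the retained naive genes with the least left in the mutant EBs. They encode osteopontin, an orphan nuclear receptor, a germline repressor of transposons, a protein of the oocyte cortex and the nuclear receptor DAX1. In CTCF-K20R EBs they stood at 2.09% (Spp1, 239 and 221) to 3.70% (Nr0b1, 54.5 and 70.3) of the WT mESC mean. Their WT EB libraries were lower again, at 6.77 and 6.53 for Ooep, 15.7 and 13.3 for Nr5a2 and 29.8 and 30.7 for Spp1. Fbxo15, a direct target of OCT4 and SOX2, lay nearest to the threshold, with 75.8 and 81.0 in WT EBs and 232 and 247 in CTCF-K20R EBs.

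The other 13 silenced genes of the naive list did not meet the rule, and they fell on both sides of equal levels. Klf4, a partner of Klf2, was read at 106 and 104 in WT EBs and 44.3 and 30.8 in CTCF-K20R EBs, a retention ratio of 0.363. Tbx3, a T-box factor, was read at 578 and 617 in WT EBs and 113 and 233 in mutant EBs. Prdm14, a repressor of differentiation genes, was read at 11.5 and 10.5 in WT EBs and 6.86 and 4.37 in mutant EBs. In these 3 genes both mutant EB libraries lay below both WT EB libraries, the opposite of the retained naive genes. Klf5 (ratio 0.955), Jam2 (0.979) and Khdc3 (0.977) stood near 1, and Tfcp2l1 (1.49), Tet2 (1.56), Zfp42 (2.26), Pecam1 (2.35), Manba (2.57) and Fgf4 (2.63) were above 1 but under the threshold. Utf1, a chromatin protein of pluripotent cells, passed the threshold for the ratio, with 3687 and 3668 in WT mESCs, 326 and 319.7 in WT EBs and 5069 and 4802 in CTCF-K20R EBs, and was left out because the mutant EBs were above WT mESCs.

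**Figure D3:**
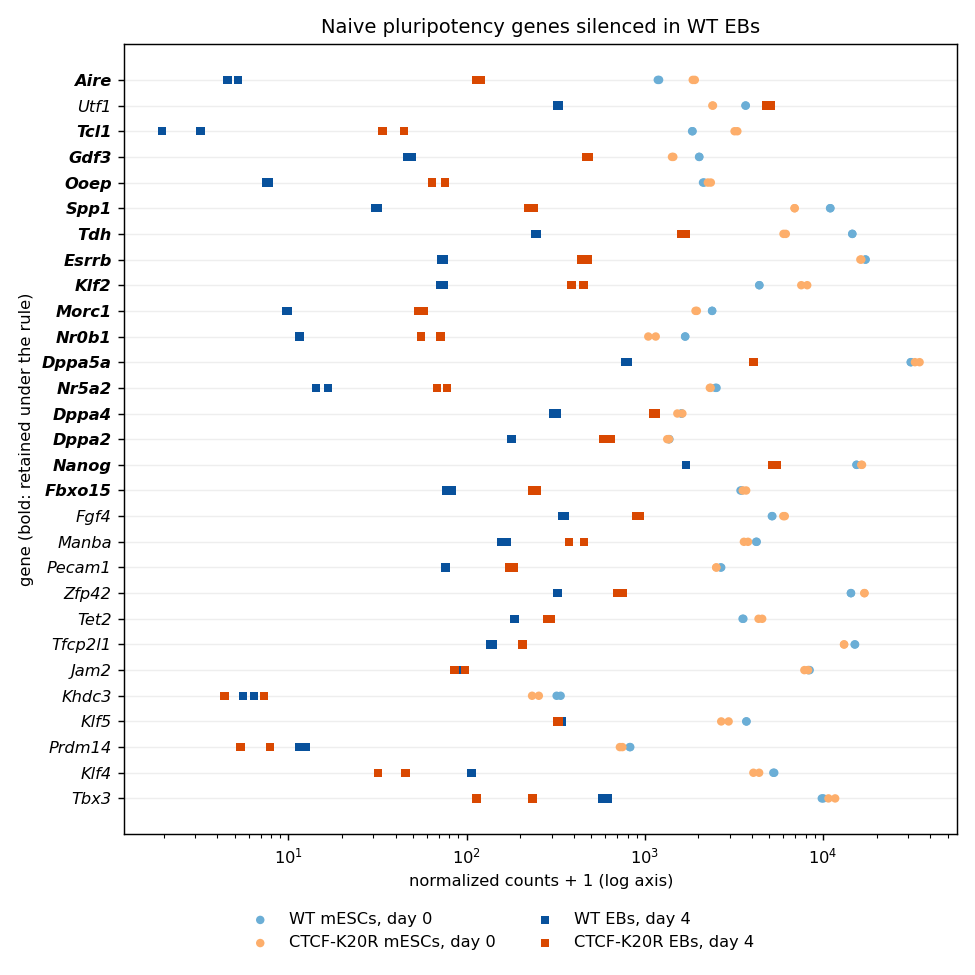
Normalized counts plus 1 (x axis, log scale) in each of the 8 libraries for the 29 naive pluripotency genes silenced in WT EBs, ordered by retention ratio, with circles for mESCs, squares for EBs, blue for WT and orange for CTCF-K20R. From Fbxo15 (3.02) upwards the orange squares lie well to the right of the blue ones, near Jam2 and Klf5 they overlap or touch, and for Klf4 and Tbx3 they lie to the left.

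Other lists, among them those tied to the medium, held too few silenced genes to judge their retention. Of 14 genes of the LIF receptor and its STAT3 targets, 4 were silenced in WT EBs and none was retained, with ratios of 2.89 for Gab1, 1.98 for Bcl3, 1.43 for Icam1 and 0.952 for Stat3. The formative and primed list had no silenced gene, and the canonical WNT list had 1 and the primordial germ cell list 2, none of them retained. Over all silenced genes the retained share was 23.4%.

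Genes of the germ line and of DNA methylation formed the next group. Of the 37 measured genes on the list of germline genes closed by promoter methylation, 12 reached the WT mESC minimum, 7 were silenced and 4 (Hsf2bp, Tuba3a, Syce1 and Dazl) were retained. The other 3 were Tex19.1 (ratio 1.90), Tdrd12 (1.71) and Fkbp6 (0.366). Dazl, an RNA-binding protein needed for germ cell development, was read at 219 and 217 normalized counts in the WT mESC libraries, 459 and 430.1 in CTCF-K20R mESCs, 5.73 and 5.80 in WT EBs and 53.1 and 36.2 in CTCF-K20R EBs. Hsf2bp, a meiotic partner of BRCA2, was read at 1825 and 1841 normalized counts in the WT mESC libraries, 2261 and 2247 in CTCF-K20R mESCs, 43.7 and 45.2 in WT EBs and 295 and 236 in CTCF-K20R EBs. Both genes were higher in CTCF-K20R than in WT libraries on each day without overlap, which the thresholds all but require on day 4. On day 0 neither was called different in the test of mESCs. Syce1, a part of the synaptonemal complex, was read at 222 and 239 normalized counts in the WT mESC libraries, 171 and 228 in CTCF-K20R mESCs, 12.5 and 14.6 in WT EBs and 68.8 and 83.2 in CTCF-K20R EBs, and 33.0% of its WT mESC level was left in the mutant EBs.

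Tuba3a, an alpha-tubulin of the testis, was read at 423 and 409.6 normalized counts in the WT mESC libraries, 1396 and 1418 in CTCF-K20R mESCs, 32.7 and 29.2 in WT EBs and 108 and 83.5 in CTCF-K20R EBs, so its mutant libraries were higher on each day and the ratio on day 4 (3.04) lay just inside the threshold. Of the 31-base words of Tuba3a, 48.4% occur in another annotated gene, with its near copy Tuba3b sharing the most, so reads of the pair may have been split. Sohlh2, a helix-loop-helix factor of early germ cells that is on no list here, showed the same pattern, with 356 and 345 normalized counts in the WT mESC libraries, 1147 and 1265 in CTCF-K20R mESCs, 0.96 and 1.62 in WT EBs and 47.0 and 39.5 in CTCF-K20R EBs. The WT EB libraries of Sohlh2 were under the limit of detection, and the mutant EBs were at least 15.0-fold higher. Relative to its own CTCF-K20R mESC mean only 3.59% of Sohlh2 was left, so in the mutant too its level was far lower on day 4 than on day 0.

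Dnmt3l (ENSMUSG00000000730, chromosome 10, 78041947 to 78063622), the cofactor of the de novo DNA methyltransferases and the only retained gene of 9 on the methylation list, was read at 3098 and 3065 normalized counts in the WT mESC libraries, 5362 and 5309 in CTCF-K20R mESCs, 276 and 272 in WT EBs and 1579 and 1524 in CTCF-K20R EBs. Aire (ENSMUSG00000000731, chromosome 10, 78030022 to 78043610), best known as the transcription factor of the thymus and also active in mESCs, overlaps it on the opposite strand, with starts 1663 bases apart, and was read at 1201 and 1182 normalized counts in the WT mESC libraries, 1857 and 1907 in CTCF-K20R mESCs, 4.22 and 3.56 in WT EBs and 112 and 118 in CTCF-K20R EBs. Both were higher in CTCF-K20R than in WT libraries on each day, and on day 4 the difference was 29.6-fold for Aire and 5.66-fold for Dnmt3l. Whether the counting used strand is not given in the sources used here, so reads of the 2 genes in their overlap cannot be told apart. The other 2 silenced genes of the methylation list, Tet1 and Tet2, had ratios of 2.72 and 1.56.

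The lists of metal and stress responses held 3 and 4 silenced genes, too few to judge their retention. Over all 569 silenced genes 23.4% were retained. Mt1 and Mt2, the metallothioneins that bind zinc and copper, were the retained genes of a list of 22 metallothionein, hypoxia and glycolysis genes, on which 3 were silenced (the third, Pfkp, had a ratio of 2.23). Mt1 was read at 6341 and 6318 normalized counts in the WT mESC libraries, 5422 and 5689 in CTCF-K20R mESCs, 950.4 and 943 in WT EBs and 5197 and 4639 in CTCF-K20R EBs, and Mt2 at 7329 and 7320.4 in WT mESCs, 5966 and 6240.3 in mutant mESCs, 881 and 872 in WT EBs and 4128 and 3732 in mutant EBs. The WT EB libraries of both genes stood apart from the other 6, and the mutant EBs kept 77.7% of the WT mESC level of Mt1 and 53.7% of that of Mt2. The 40 nearest genes around Mt1 and Mt2, also on chromosome 8, were shifted by a median of 0.40 (log2) between the mESCs.

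Of the 17 genes on the list of amino acid response and p53 targets, 4 were silenced and Trib3, Chac1 and Gdf15 were retained. These encode a pseudokinase, an enzyme that breaks down glutathione and a stress cytokine. Chac1 was read at 394 and 413 normalized counts in the WT mESC libraries, 866 and 868 in CTCF-K20R mESCs, 32.6 and 34.8 in WT EBs and 198 and 211 in CTCF-K20R EBs. Gdf15 was read at 229.6 and 234 in WT mESCs, 2.94 and 3.31 in WT EBs and 33.8 and 41.9 in CTCF-K20R EBs, and Trib3 at 93.3 and 99.6 in WT EBs and 371 and 352 in mutant EBs. In each of the 3 the EB libraries of the genotypes did not overlap, which the thresholds all but require. Asns, the asparagine synthetase on the same list, had a ratio of 1.22, so the list was not retained as a whole.

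The genes left at the highest share of their WT mESC level were mostly not naive factors. Dmrt1, a transcription factor of the male germ line, was read at 471 and 461 normalized counts in the WT mESC libraries, 332 and 282 in CTCF-K20R mESCs, 103 and 100.01 in WT EBs and 498 and 412 in CTCF-K20R EBs. Slc7a3, a transporter of cationic amino acids, was read at 4329.6 and 4349 normalized counts in the WT mESC libraries, 3480.3 and 3828 in CTCF-K20R mESCs, 497 and 515 in WT EBs and 4235 and 4196 in CTCF-K20R EBs. Col18a1, the gene of a basement membrane collagen, was read at 7491 and 7542 normalized counts in the WT mESC libraries, 6666 and 6569 in CTCF-K20R mESCs, 1347 and 1382 in WT EBs and 6931 and 7113 in CTCF-K20R EBs. In all 3 genes the WT EB libraries were far below the other 6, with 97.5%, 97.1% and 93.4% of the WT mESC mean left in the mutant EBs.

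L1td1, an RNA-binding protein derived from a LINE-1 element, was read at 15515 and 15428 normalized counts in the WT mESC libraries, 14228 and 13721 in CTCF-K20R mESCs, 3611 and 3541 in WT EBs and 13360.1 and 12657 in CTCF-K20R EBs, and 84.1% was left in the mutant EBs compared with 23.1% in WT EBs. Clgn, a chaperone of the testis, was read at 429 and 440.1 normalized counts in the WT mESC libraries, 747 and 699 in CTCF-K20R mESCs, 22.9 and 23.4 in WT EBs and 356 and 373 in CTCF-K20R EBs, which gave a high retention ratio (15.1) and a high share (83.9%) in the same gene. The remaining genes in the 10 with the highest share were 1700019D03Rik (95.1%), Pmm1, a phosphomannomutase (89.6%), Grin1, a subunit of NMDA receptors (87.0%), C77370 (86.4%) and 2900011O08Rik (86.3%). Of the 31-base words of 1700019D03Rik, 32.5% occur in another annotated gene, so part of its reads may be shared. Dmrt1, Slc7a3, Col18a1, 1700019D03Rik, Pmm1 and Grin1 were among the 13 genes that were also above their own CTCF-K20R mESC mean.

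Among the genes outside the lists with the most counts in WT mESCs, Myo10, a myosin of filopodia, was read at 15144 and 15016 normalized counts in the WT mESC libraries, 11950.0 and 11344 in CTCF-K20R mESCs, 1404 and 1421 in WT EBs and 5827 and 6292 in CTCF-K20R EBs. Rbpms2, an RNA-binding protein, was read at 9808 and 9726 normalized counts in the WT mESC libraries, 5663 and 5791 in CTCF-K20R mESCs, 2301 and 2274 in WT EBs and 7606 and 7966 in CTCF-K20R EBs. In both the WT EB libraries were the lowest, and in Rbpms2 the mutant EBs stood above the mutant mESCs. Jade1, a subunit of the HBO1 acetyltransferase complex, was read at 1113 and 1134 in WT EBs and 4488 and 4816 in CTCF-K20R EBs. Cbx7, a chromodomain subunit of Polycomb complex PRC1, was read at 1319 and 1325 in WT EBs and 5865 and 5694 in mutant EBs, and Chchd10, a mitochondrial protein, at 825 and 818 in WT EBs and 2515 and 2496 in mutant EBs. The share of the WT mESC level left in the mutant EBs ran from 32.4% for Chchd10 to 79.7% for Rbpms2 among these 5 genes. None of their EB libraries overlapped between genotypes, which the thresholds all but require of a retained gene.

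The largest ratio, 112, belonged to Gm14440, which was read at 219 and 219 in WT mESCs, 0 in both WT EB libraries and 88.3 and 133 in CTCF-K20R EBs. All its 31-base words (100%) occur in another annotated gene, so its level is uncertain. Against the limit of detection in WT EBs its mutant level was at least 38.4-fold higher, while the ratio itself depends on the 1 added to both means. The other genes in the 10 with the largest ratio were Kirrel2, Aire, Nphs1, Sohlh2, Tcl1, Clgn, Zfp819 (12.02), a zinc finger repressor, Aass (11.8), an enzyme of lysine breakdown, and Triml1 (11.4). Zfp819 was read at 11.0 and 10.1 in WT EBs and 146 and 130.1 in CTCF-K20R EBs, with 51.2% of the WT mESC level left.

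Several retained genes were neighbours. A second retained gene lay within 100 kb of 20 of the 133 genes (15.04%), compared with 24 of 434 other silenced genes with a position (5.53%), while any other silenced gene lay this close to 30.08% and 29.03% of them. These shares are a description and were not tested. The 20 genes form 10 pairs. In 2 of these the genes overlap on opposite strands, namely Aire with Dnmt3l and Tdh with Gm17232.

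Kirrel2 and Nphs1, which encode the related cell adhesion proteins NEPH3 and nephrin, stand head to head on chromosome 7 with annotated starts 625 bases apart in GENCODE (the RefSeq start of Nphs1, used for the sequence above, lies further in). Kirrel2 (ENSMUSG00000036915, chromosome 7, 30447534 to 30457690) was read at 905 and 922 normalized counts in the WT mESC libraries, 661 and 542 in CTCF-K20R mESCs, 6.81 and 6.49 in WT EBs and 167 and 228 in CTCF-K20R EBs. Nphs1 (ENSMUSG00000006649, chromosome 7, 30458315 to 30487223) was read at 1591 and 1641 normalized counts in the WT mESC libraries, 1222 and 1262 in CTCF-K20R mESCs, 17.9 and 18.9 in WT EBs and 507 and 389 in CTCF-K20R EBs. Both were above the limit of detection in all libraries, and both had a mutant level over 20-fold above WT on day 4 (29.7-fold and 24.4-fold) with 21.6% and 27.8% of the WT mESC level left. On day 0 their mutant libraries were the lower ones.

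Triml1 and Triml2, relatives of the tripartite motif proteins, have starts 39055 bases apart on chromosome 8. Triml1 was read at 13.4 and 13.0 in WT EBs and 164 and 157 in mutant EBs, and Triml2 at 27.8 and 25.1 in WT EBs and 294 and 229 in mutant EBs. About the same share of the WT mESC level was left of both in the mutant EBs, 8.60% and 9.85%. In the pairs of Dppa5a with Ooep (gap 7932 bases), Dppa4 with Dppa2 (9671), Mt2 with Mt1 (5514) and Gdf3 with Nanog (97402) the shares were less alike, as in Dppa5a (13.1%) and Ooep (3.23%). The last 3 pairs were Mpv17l with 2900011O08Rik, Gm13154 with Gm16211, and Tdh with Gm17232.

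**Figure D4:**
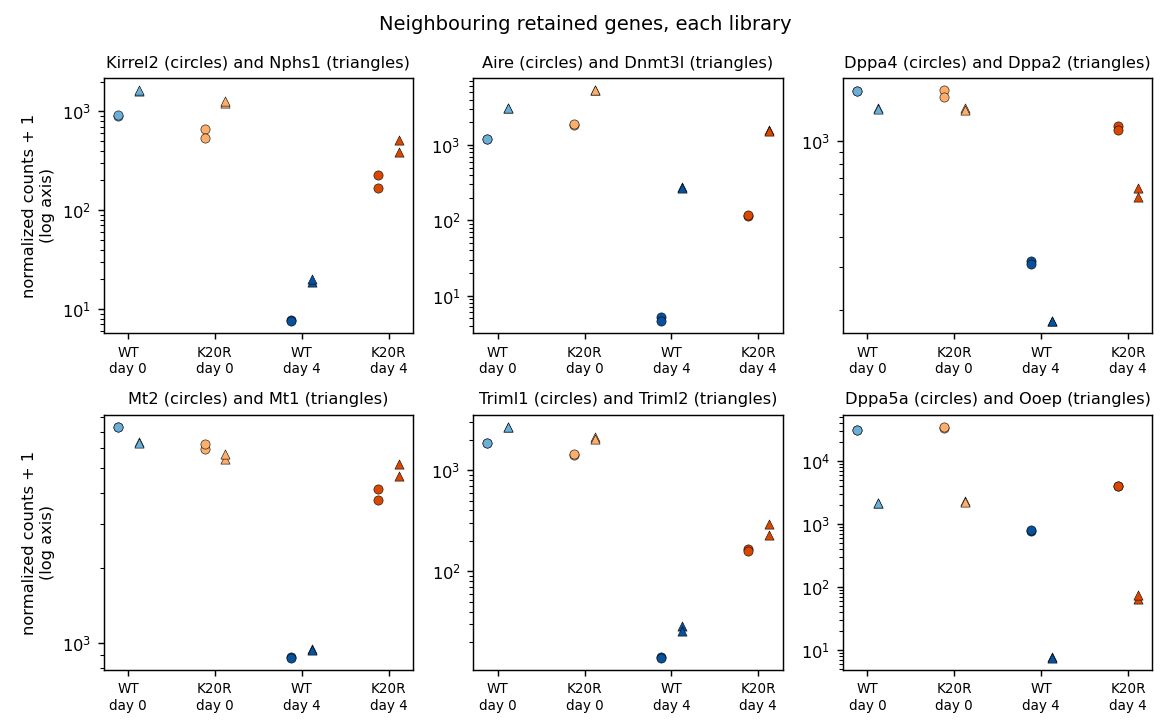
Normalized counts plus 1 (y axes, log scale, each panel with its own range) in each library for 6 pairs of neighbouring retained genes, with circles for the first and triangles for the second gene of a pair. In every panel the WT day 4 points are the lowest for both genes and the CTCF-K20R day 4 points lie between them and the mESC points.

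Other functions recur among the 133 genes. These were read off after the values were seen, and no group was tested. Fatty acid metabolism was represented by Cpt1a, Acacb, Lpl (a lipase) and Fabp3 (a fatty acid-binding protein). Cpt1a, the carnitine transferase of mitochondria, was read at 117 and 113 in WT EBs and 381 and 378 in mutant EBs. Acacb was read at 146 and 141 in WT EBs and 527 and 439.7 in mutant EBs, and Lpl at 88.9 and 91.3 in WT EBs and 452 and 381 in mutant EBs. Acacb, which makes the inhibitor of that transferase, was left at 83.5% compared with 10.5% for Cpt1a. Genes known from innate immunity were Tlr2, Aim2, Syk and Pml. Tlr2, a receptor for bacterial lipoproteins, was read at 34.6 and 39.7 in WT EBs and 344 and 295 in mutant EBs. Pml, the scaffold of nuclear bodies, was read at 835 and 799 in WT EBs and 3789 and 3712 in mutant EBs. The mutant EBs kept 72.6% of the WT mESC level of Tlr2, 71.2% of Pml, 45.6% of Syk and 24.7% of Aim2. Genes best known from neurons included Grin1, Camk2b, Uchl1, Nefh, Arc and Mapt. Of the 11 measured genes of the neural ectoderm list only 2 reached the WT mESC minimum and none was silenced, so none could be retained.

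The mESCs before differentiation gave the only comparison that the selection did not use in full, since the CTCF-K20R mESC libraries were not used to choose genes. The WT mESC libraries were used, so the 436 other silenced genes, chosen on the same WT libraries, are given beside the retained ones. A gene was called when its log2 fold change was over 1 in size and its adjusted p under 0.05, by limma with Benjamini-Hochberg adjustment over 15767 genes. Since WT counts as 1 sample, the spread in this test comes from the CTCF-K20R pairs alone, and WT is assumed to vary like them. All 133 retained genes passed the filter on low values. Before differentiation 115 of the 133 retained genes (86.5%) were within 1 log2 unit, compared with 85.8% of the other silenced genes and 90.0% of all genes tested. By the adjusted p alone, whatever the size, 10 retained genes (7.52%) were higher and 30 (22.56%) lower, where the shares were 3.44% and 18.81% of the other silenced genes and 7.83% and 7.57% of all genes. The retained genes had a median log2 fold change of -0.18, 93 genes below 0 and 40 above. The median was -0.26 for the other silenced genes and -0.01 for all genes tested.

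On day 0, 4 retained genes (3.01%) were called higher in CTCF-K20R mESCs, where the share over all genes was 1.19%, and 9 (6.77%) were called lower, where the share over all genes was 2.6%. Of the other silenced genes 3 (0.69%) were called higher and 38 (8.72%) lower. So 120 of the 133 genes were not called before differentiation, which does not show that they were equal. Of the 34 naive genes tested, Tdh alone was called. Leaving out a CTCF-K20R mESC library gave 1 higher and 3 lower (without replicate 1) or 1 higher and 4 lower (without replicate 2) among the retained genes. Without either CTCF-K20R EB library, which leaves 1 fewer sample to estimate the spread, limma called 0 genes in either direction, with 5 retained genes higher and 12 lower at an unadjusted p under 0.05 and the same size.

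Plagl1, an imprinted zinc finger gene expressed from the paternal allele, had the largest rise. It was read at 512 and 524 normalized counts in the WT mESC libraries, 5172 and 5140.2 in CTCF-K20R mESCs, 102 and 127 in WT EBs and 369 and 432 in CTCF-K20R EBs. The mutant mESC libraries stood apart from the other 6, and the log2 fold change between the mESCs was 3.31 ± 0.11 (SE, limma adjusted p = 0.000731). Its 77.3% of the WT mESC level in mutant EBs was 7.77% of its own mutant mESC level. Tuba3a and Sohlh2, described above with their libraries, had log2 fold changes of 1.75 (adjusted p = 0.00567) and 1.78 (adjusted p = 0.00833), and Chac1 of 1.102 (adjusted p = 0.00712), all from limma. In each of the 3 both mutant mESC libraries were above both WT mESC libraries. Dazl missed the call, with a log2 fold change of 1.03 and an adjusted p of 0.0785 from limma.

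Atp2b2, a calcium pump of the plasma membrane, had the largest fall on day 0 among the retained genes. It was read at 291 and 286 normalized counts in the WT mESC libraries, 44.3 and 33.4 in CTCF-K20R mESCs, 8.46 and 8.07 in WT EBs and 34.6 and 38.7 in CTCF-K20R EBs. The log2 fold change between the mESCs was -2.87 ± 0.34 (SE, limma adjusted p = 0.00676). The mutant EB libraries stood at 94.4% of the mutant mESC mean, so the mutant level was low on both days.

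Tdh, the threonine dehydrogenase that feeds one-carbon metabolism in mESCs, was read at 14599 and 14596 normalized counts in the WT mESC libraries, 6002 and 6181 in CTCF-K20R mESCs, 246 and 243 in WT EBs and 1694 and 1601 in CTCF-K20R EBs, and its day 0 log2 fold change was -1.26 ± 0.06 (SE, limma adjusted p = 0.000958). The mutant mESC libraries were below the WT ones and the mutant EB libraries above the WT ones. The 40 nearest genes tested around Tdh on chromosome 14 were shifted by a median of -0.94 (log2) between the mESCs, and the part of this in the value of Tdh was not tested. Aass had the highest share of its own mutant mESC level in mutant EBs, 167%. It was read at 319.7 and 314 normalized counts in the WT mESC libraries, 126 and 119.7 in CTCF-K20R mESCs, 16.2 and 16.8 in WT EBs and 189 and 222 in CTCF-K20R EBs and had a day 0 log2 fold change of -1.36 (adjusted p = 0.0152 from limma). Its mutant libraries were thus higher in EBs than in mESCs, the reverse of the WT libraries.

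Ckmt1, Prdm16, Pgc, Camk2b and Ephx1 were also called lower on day 0. Ckmt1, a mitochondrial creatine kinase, was read at 708 and 743 in WT and 336 and 320.1 in mutant mESCs. Prdm16, a zinc finger coregulator, was read at 528 and 493 in WT and 222 and 213 in mutant mESCs. The log2 fold changes were -1.14 for Ckmt1, -1.23 for Prdm16, -1.19 for Pgc (a pepsinogen), -1.16 for Camk2b (a calmodulin-dependent kinase subunit) and -1.05 for Ephx1 (an epoxide hydrolase). Their adjusted p values from limma ran from 0.00643 (Ckmt1) to 0.0475 (Pgc). In each of these 5 genes both mutant mESC libraries were below both WT mESC libraries, and the mutant EB libraries were above the WT EB libraries as the rule requires.

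**Figure D5:**
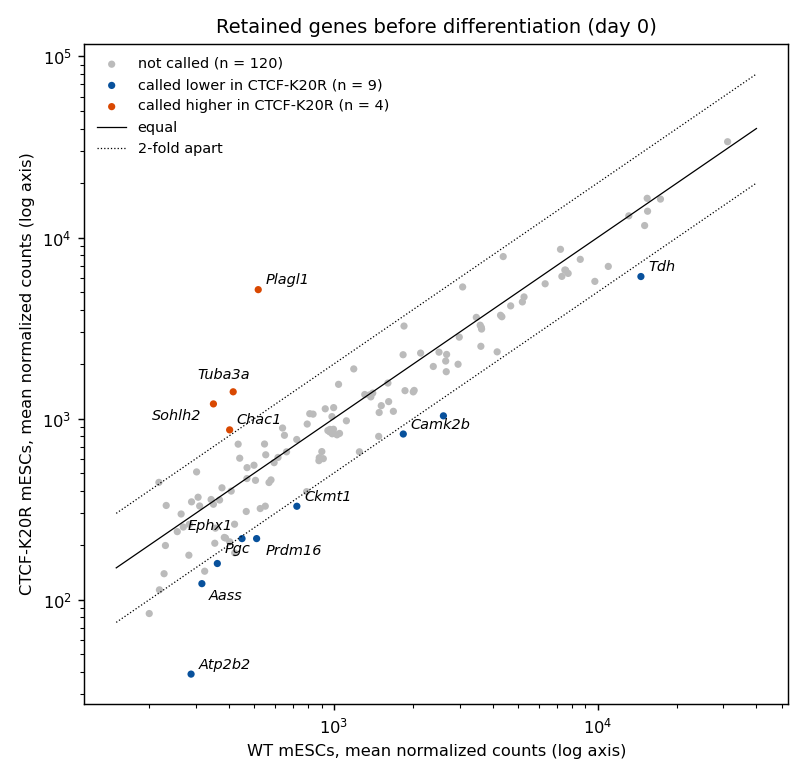
Mean normalized counts of the 133 retained genes in WT mESCs (x axis) and CTCF-K20R mESCs (y axis), both on log axes, with the line of equal levels and dotted lines 2-fold away. The 120 grey genes were not called, the 4 orange genes (Plagl1, Tuba3a, Sohlh2, Chac1) lie above and the 9 blue genes below, with Plagl1 and Atp2b2 farthest from the line (names are given for the genes described in the text).

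Several other values moved with the genotype beside the retained genes. On chromosome 8, Lpl, Clgn, Nqo1, Gdf15, Klf2, Cdh3, Mt1 and Mt2 lay among genes whose median log2 fold change on day 0 was above 0.3 (0.59 around Gdf15 and 0.50 around Klf2). Of 25 silenced genes on chromosome 8, 11 were retained, against 133 of 569 over all chromosomes. On chromosomes 16 and X it was 6 of 15 each, and no chromosome was tested. When each retention ratio was divided by the median day 4 ratio of the 40 nearest genes, 122 of the 133 genes stayed at 3 or more, and Cdh3 on chromosome 8 was at 2.29. Mesoderm and primitive streak genes summed to 64353 to 64702 normalized counts per library in WT EBs and to 2697 to 2841 in mutant EBs. The endoderm list summed to 46026 to 46031 in WT and 20490 to 21189 in mutant EBs (and to 21973 to 21975 and 12965 to 13269 in the mESCs), the trophoblast list to 11310 to 11354 and 2131 to 2227 in the EBs, and the primordial germ cell list to 9871 to 9971 and 1493 to 1593. All of these sums were lower in the mutant EBs, as were those of the canonical WNT, imprinted and neural lists. The trophoblast sum is not independent of the mesoderm sum, since Eomes, Cdx2 and Hand1 are on both lists. Eomes made up most of the trophoblast sum in EBs (9931 and 9866 in WT, 1845 and 1777 in mutant EBs). Other lists summed higher in the mutant EBs. The formative and primed list summed to 43558 to 43671 in WT and 72466 to 74670 in mutant EBs. The list of amino acid response and p53 targets summed to 29178 to 29238 in WT and 50248 to 50309 in mutant EBs. The fibroblast list (23 of 24 measured), which covers feeder cells, summed to 61360 to 61589 and 12415 to 13193 in the same EBs and to 59643 to 60213 and 52937 to 53495 in WT and CTCF-K20R mESCs. In mESCs of each genotype 6 of the 23 measured genes of this list were at or under the limit (Dcn, Col3a1, Postn, Lum and Ccl2 in both), and the other 17 were above it, among them Sparc, Vim, Thy1, Lgals1 and Pdgfrb. Fn1, which other cell types express too, made up most of the sum of the list in mESCs and WT EBs. It was read at 46096 and 46007 in WT EBs and 3602 and 3976 in mutant EBs. Vim was lower in mutant EBs too (7075 and 7020 in WT, 1134 and 1584 in mutant EBs). Other genes of the list were higher in mutant EBs, among them Thy1 (226 and 222 in WT, 580 and 526 in mutant). Cnn1 was also higher (208 and 211 in WT, 443 and 474 in mutant EBs), so the lower sum does not hold for every gene. No retained gene is on the mesoderm, fibroblast, endoderm, trophoblast or neural list. Of these lists only the trophoblast list held any silenced gene (2), so the others could not hold a retained one. The part of these other cell types in the levels above was not tested.

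Of the 133 genes 34 have exons that overlap another annotated gene, among those named Tdh, Gm17232, Aire, Dnmt3l, Hsf2bp, Tuba3a, Mt2, Nphs1, Plagl1, Prdm16, Ckmt1, Chchd10, Cbx7, Jade1, Pml, Grin1, Fabp3, Uchl1, Ttn, Ndufa4l2, Kbtbd11 and 2900011O08Rik on the opposite strand and Spp1 and Ephx1 on the same strand, and 13 share over 30% of their 31-base words with another gene. Of the genes named, Dppa5a, Dppa4, Dppa2, Tuba3a, Gm14440, 1700019D03Rik, Fabp3, Gm13154 and Gm16211 are among these 13. Just inside the retention threshold lay Fbxo15 (3.02), Tuba3a (3.04), Chchd10 (3.05), Ndufa4l2 (3.10) and Kbtbd11 (3.10). Just outside lay Cldn4 (2.99), Lima1 (2.97), Pla1a (2.96), Ahnak2 (2.94) and 9830144P21Rik (2.94). The genes on either side of the threshold were thus close in ratio. Besides Utf1, 9 genes met all thresholds but stood above their WT mESC mean in CTCF-K20R EBs and were left out, namely 2410007B07Rik, Map6, Gm12139, Patl2, Abcc4, Sned1, Ier3, Cdk5r2 and Tcf15.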

How the data were processed

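RNA-seq of WT and CTCF-K20R mESCs (day 0) and EBs (day 4) was analysed, with 2 libraries per genotype and day. The authors used Trim_Galore for trimming, salmon for quantification on mm10, tximport to collapse transcripts and DESeq2 to normalize, and the deposited signal per gene is this normalized count. All 8 columns matched a sample by name. The annotation release and the use of strand in the counting are not given in the sources used here.

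The retained genes and all lists were chosen with earlier results of these data known. WT pairs were averaged to 1 sample, so 6 samples entered a single fit of log2(value + 1) over genes averaging 10 normalized counts or more (limma 3.58.1 in R 4.3.3 with a mean-variance trend, 2 residual degrees of freedom, 3.51 prior ones and Benjamini-Hochberg adjustment). Fold changes of low genes are understated on this scale, and p-values measure only the spread between the CTCF-K20R libraries of each pair, with WT assumed to vary alike. The fit was tried on simulated data in which WT and CTCF-K20R had the same spread, so that assumption was not checked. A fold against a WT EB mean at or under the limit (3 reads in the library with the highest limit) is a lower bound. Positions and 31-base words came from GENCODE vM21 (GRCm38), promoters from RefSeq (GRCm38.p6), with Python 3.11.15. Alternatives were other pseudocounts, filters, scalings, thresholds and left-out libraries. Named genes are the retained genes on a list, the 12 with the highest WT mESC counts, the 10 with the largest retention ratio, the 10 with the largest share kept, those called on day 0, and the 5 nearest either side of the threshold. Others named were chosen after their values were seen. A retained gene covered by the rule for named genes is not reported here.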

Additional observations from a re-analysis of the deposited data

Results flagged for a closer look

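In 9 of the 133 genes the genotypes differed in opposite directions on the 2 days, with CTCF-K20R mESCs called lower on day 0 and CTCF-K20R EBs above WT EBs on day 4. These are 6.77% of the retained genes, and the same day 0 call was made in 8.72% of the other silenced genes and 2.6% of all genes. The day 4 direction was set by the choice of the genes, and the difference between the days was not tested. Among those given here, the day 0 log2 fold changes were -2.87 for Atp2b2, -1.36 for Aass, -1.26 for Tdh, -1.23 for Prdm16, -1.19 for Pgc, -1.16 for Camk2b, -1.14 for Ckmt1 and -1.05 for Ephx1. Of the genes given here, Atp2b2 and Aass had the highest levels left of their own CTCF-K20R mESC level in CTCF-K20R EBs, at 94.4% and 167% compared with 27.1% for Tdh.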

How the results depend on the processing

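The number of retained genes depended most on the retention threshold, with 259 genes at a ratio of at least 2 and 77 at a ratio of at least 4. It was 105 with 10 added to both means (all 105 among the 133), 139 to 140 from single libraries (126 of the 133 each), 178 at a WT mESC minimum of 100, 139 at a WT ratio of up to 0.5 and 179 after quantile normalization (131 of the 133). Dividing by the neighbours' day 4 ratio, an alternative chosen after seeing the data, gave 133 genes, 122 of them shared.

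On day 0, the fit on the day 0 libraries alone called 4 retained genes higher and 2 lower, and the adjusted p alone called 10 higher and 30 lower (7.52% and 22.56%, against 7.83% and 7.57% of all genes). Leaving out 1 library gave 0 to 4 genes called higher and 0 to 10 called lower. The other 7 settings gave 4 or 5 higher and 6 to 12 lower, and the cause of these changes was not tested. Calls in the higher direction were 31.4% of all calls and 41.5% after quantile normalization. Over all genes, 188 were called higher and 410 lower, and 445 and 903 with all 8 libraries as separate samples, and 54 and 92 on day 0 libraries alone. Replicate numbers did not pair the samples (correlation of replicate differences between days -0.04 in CTCF-K20R), and a fit with the replicate block called 4 higher and 8 lower. Tdh and Plagl1 kept their call in 15 of 15 alternatives that left the CTCF-K20R EB libraries in, and Pgc in 8. Some of these 15 could hardly remove a call, namely the adjusted p alone and leaving out a WT EB library. Without either CTCF-K20R EB library Tdh, Plagl1 and Pgc all lost their call. The limit of detection (2.44 to 3.44) bounds the folds of 11 genes whose WT EB mean was at or under it, 2 of them at less than 3-fold, and leaves 1 (Myo1f) with no fold.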
